A study of Mus musculus with 13 samples.

Results

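Cytosolic ribosomal proteins are the protein parts of the ribosome outside mitochondria. Of 18193 genes that an array probe set named alone, 46 were ribosomal protein genes, 24 of the large 60S subunit and 22 of the small 40S subunit. A gene was taken by its symbol, Rpl or Rps with a number and at most a letter a, x, y or l, or Rplp0, Rplp1, Rplp2 or Rpsa, where a probe set named no other gene. These 46 genes had 100 probe sets, 1 each for 23 genes and up to 6 for the others. Another 110 probe sets named such a symbol beside other genes, and 28 symbols, among them Rpl3, Rpl5 and Rplp1, occurred on such shared probe sets alone and are not described singly. The symbol decides membership, so the label could be checked only against the annotation, and all 100 probe sets matched the reference gene table without a change of symbol.

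The cells were C2C12, an established line of mouse myoblasts, the precursors of muscle fibres. Parallel flasks had been grown to 90% confluence in medium with 5% serum, held for 24 h in 0.2% serum, and then given serum again. Arrays of 13 time points from 0 to 6.0 h, 1 per time point, were analysed, and the title of the study concerns genes that oscillate in somitogenesis, the laying down of body segments in the embryo. The 0 h group was the 1 array at the end of the low-serum period, and the early (0.5 to 2.0 h), middle (2.5 to 4.0 h) and late (4.5 to 6.0 h) windows held 4 arrays each from flasks with serum returned. All groups shared the same line, growth and low-serum period, no flask kept in low serum throughout was analysed here, and each time was 1 flask. The spread within a window therefore holds both change over time and difference between flasks.

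Ribosomal proteins are made in the cytoplasm, carried into the nucleolus by importins and dedicated chaperones, and bound there to ribosomal RNA to form the subunits. Their messenger RNAs are abundant and stable in growing cells and typically begin with a C followed by a run of pyrimidines, the TOP motif. Through this motif the protein Larp1 and the kinase mTOR set how many of these messages are translated when serum or amino acids change, so that ribosomal protein synthesis can change with little change in the amount of the message. The arrays measured the amount of message alone.

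Promoter sequences from RefSeq (build GRCm38.p6) could be matched to 40 of the 46 genes, with 48 annotated starts. A pyrimidine tract, here a C followed by 6 or more C or T letters, beginning between 10 bases before and 20 bases after the start on the sense strand, was found in 20 of 48 member promoters (41.7%) and in 13.5% of all 32851 promoters in the table. The stricter reading of TOP, a C at the annotated first base followed by 4 C or T letters, held in 8 of 48 (16.7%) and in 2.51% of all promoters. The hexamer CTTCCG, the core that ETS family factors bind, or its complement CGGAAG, occurred in 30 of 48 promoters of 300 bases (62.5%) and in 16.9% of all. The letters TATAAA, from 45 to 16 bases before the start on the sense strand, occurred in 0 of 48 and in 2.14% of all. These counts describe letters around annotated starts and none of them is a measured binding site.

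The stretches below, 25 bases before and 25 bases after the annotated start, are shown because these genes carried the largest differences that passed the test, Rpl27a, Rpl12 and Rps16 against 0 h, Rpl13a between the early and middle windows and Rpl14 between the early and late windows. Capitals mark the pyrimidine tract where the window held one. Rpl27a lies at chr7:109519170-109519219 on the plus strand, Rpl14 at chr9:120571492-120571541 on the plus strand, Rpl13a at chr7:45128721-45128770 on the minus strand, Rpl12 at chr2:32961687-32961736 on the plus strand and Rps16 at chr7:28350664-28350713 on the plus strand.
Rpl27a: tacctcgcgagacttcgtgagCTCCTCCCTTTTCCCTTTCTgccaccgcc
Rpl14: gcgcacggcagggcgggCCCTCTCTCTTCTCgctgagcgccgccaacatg
Rpl13a: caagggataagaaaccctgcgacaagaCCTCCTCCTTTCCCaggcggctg
Rpl12: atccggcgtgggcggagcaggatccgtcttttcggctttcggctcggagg
Rps16: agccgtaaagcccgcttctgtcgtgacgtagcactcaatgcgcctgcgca
The tract was 20 bases long in Rpl27a, 14 in Rpl14 and 14 in Rpl13a, and none that met the rule lay in the window of Rpl12 or Rps16.

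All values are log2 of the deposited ratio of an array to a reference set for each probe set, averaged over the probe sets of a gene. A value of 0 is the reference and 1 is a doubling. The ratios hold no signal level, so no level could be compared between genes, myoblast markers could not be used to check the identity of the cells, and dim probe sets could not be told from bright ones. Since each array read bulk RNA from a flask, fewer cells with a message and less message per cell cannot be told apart.

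The array ratios of ribosomal protein messages varied little over the 6.0 h. Values of 23 of the 46 genes were means over several probe sets. The part of averaging or of signal level in the spreads below was not tested. The standard deviation of a gene over the 13 arrays had a median of 0.11 for the 46 genes and 0.13 for all named genes, and 34 of the 46 lay below the median of all genes. The range between the highest and the lowest array was under 0.5 for 37 of the 46 genes and for 59.0% of all genes. Rps18, a protein of the head of the small subunit, had the smallest spread, with values between -0.07 at 2.5 h and 0.10 at 0 h. Rpl12, which lies at the base of the ribosomal stalk, had the largest, with a standard deviation of 0.29. The widest ranges after it belonged to Rpl14 (0.92), Rpl27a (0.91), Rps16 (0.84) and Rpl37 (0.79).

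**Figure D1:**
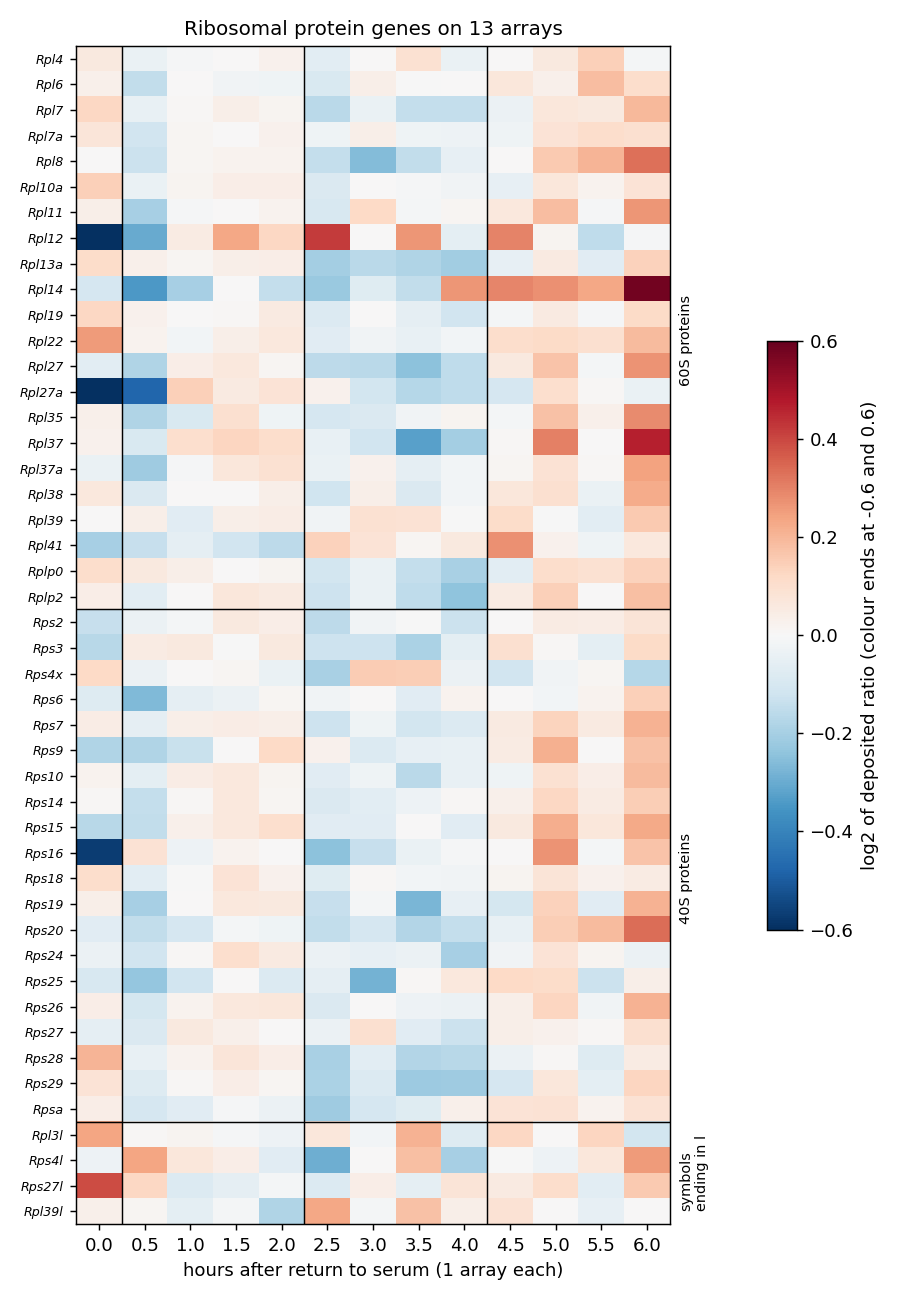
Log2 of the deposited ratio for the 46 ribosomal protein genes (rows, in 3 blocks for 60S proteins, 40S proteins and symbols ending in l) on the 13 arrays (columns, hours after the return of serum), with vertical lines between the windows. Most cells are pale; the darkest blue cells are Rpl12, Rpl27a and Rps16 at 0 h, and the column at 6.0 h is red for most genes.

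The small movements were largely shared. A gene's values over the 13 arrays correlated with the mean of the other 45 members at a median Pearson r of 0.66, over 0.7 for 22 genes and under 0 for 4, which is a description since all genes share the arrays. The median of the 46 genes, relative to 0 h, was -0.13 at 0.5 h, -0.04 at 1.0 h, 0.03 at 1.5 h and -0.01 at 2.0 h. In the middle window it was -0.12, -0.04, -0.05 and -0.08 from 2.5 to 4.0 h. In the late window it was 0.01, 0.09, 0.01 and 0.16 from 4.5 to 6.0 h. The median of all named genes stayed between -0.06 and 0.00 on the same arrays. The 6.0 h array held the highest value of 25 of the 46 genes, while the lowest value lay at 2.5 h for 12 genes and at 0.5 h for 10.

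The same shape was seen in both subunits and in the probe sets left out of the gene values. At 2.5 h the median relative to 0 h was -0.13 for 60S and -0.09 for 40S genes, and at 6.0 h it was 0.15 for 60S and 0.17 for 40S genes. The 110 shared probe sets had medians of -0.13 at 2.5 h and 0.15 at 6.0 h. The array's own control probe sets for beta-actin and Gapdh, 6 in all, moved the same way. Relative to the reference the mean of the ribosomal protein genes was -0.01 ± 0.06 in the early, -0.06 ± 0.02 in the middle and 0.07 ± 0.06 in the late window (SD, n = 4 arrays each), beside 0.02 ± 0.03, -0.06 ± 0.03 and 0.06 ± 0.07 for these controls. The control for the 5′ end of 18S ribosomal RNA averaged -0.56 ± 0.83, -0.27 ± 1.17 and 1.40 ± 1.12 in the same windows and was highest at 6.0 h, at 2.39. The 18S controls for the middle and the 3′ end moved much less and read 0.48 and 0.65 at 6.0 h. The part of these controls in the shared movement was not tested.

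**Figure D2:**
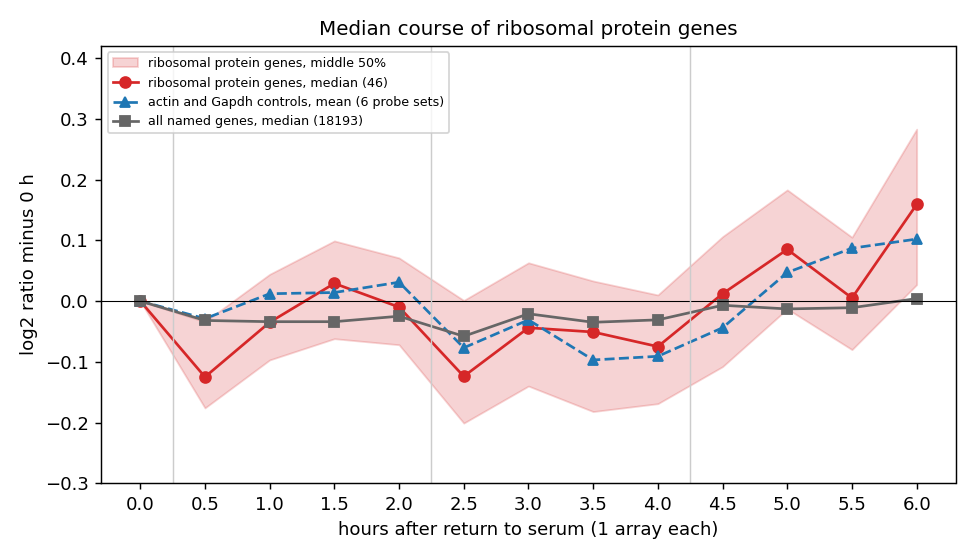
Median log2 ratio relative to 0 h (vertical axis) over hours after the return of serum (horizontal axis, 1 array each) for the 46 ribosomal protein genes (red circles, with a band for the middle 50% of genes) and all 18193 named genes (grey squares), and the mean of 6 actin and Gapdh control probe sets (blue triangles). The red line reaches 0.16 at 6.0 h, its highest point, and the blue line follows it below 0 in the middle window.

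Few genes were called between 0 h and the early window, among the members as among all genes. Calls came from limma, with Benjamini-Hochberg adjustment over all 18193 genes and a threshold of 0.05. In the early window 2 of 46 genes (4.35%) were higher than at 0 h and 1 (2.17%) was lower. Of all genes 1.46% were higher and 1.81% lower. The median change was -0.03 for the members and -0.03 for all genes. The 0 h group was a single array, assumed to vary like the others, so every comparison with it rests on that array.

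Rps16, a protein of the small subunit whose tail reaches the transfer RNA, rose. It had log2 ratios of 0.09, -0.03, 0.02 and 0.00 from 0.5 to 2.0 h, against -0.57 at 0 h, and 0.59 ± 0.11 separated the early mean and 0 h (1.51-fold, adjusted p = 0.0165). All 4 early arrays lay above the 0 h array, by margins larger than the spread among them. Rpl27a, a 60S protein, rose by 0.72 ± 0.17 (1.65-fold, adjusted p = 0.0393). Its early values were -0.48, 0.14, 0.05 and 0.08, against -0.77 at 0 h. The 0.5 h array thus stood nearer to 0 h than to the other 3 early arrays. The call for Rpl27a held under 10 of 18 alternative settings, with adjusted p between 0.000284 and 0.306, and that for Rps16 under 17 of 18, with adjusted p between 0.0115 and 0.172. Many of these settings could not move the differences. Leaving out a middle or late array kept them at 0.72 and 0.59, as did a variance trend and the median over probe sets. The 0 h array could not be left out, and the setting without plain _at probe sets dropped both genes. Rpl12 had values of -0.30, 0.05, 0.23 and 0.12, against -0.70 at 0 h, and its difference of 0.73 ± 0.20 had an adjusted p of 0.0643.

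Rps27l, a paralogue of Rps27 known in human and mouse cells as a target of the stress factor p53, fell. Its early values were 0.12, -0.08, -0.05 and -0.01, against 0.39 at 0 h, a difference of -0.40 ± 0.10 (0.758-fold, adjusted p = 0.0482). Its 3 probe sets had 0 h values of 0.32, 0.42 and 0.44, each the highest of that probe set over the 13 arrays. This call lay at the threshold and held under 5 of 19 alternative settings, with adjusted p between 0.0156 and 0.369. Rpl22, which binds RNA and is also found outside the ribosome, and Rpl3l, the form of Rpl3 made in skeletal and heart muscle, had the next lowest differences, -0.23 ± 0.07 (adjusted p = 0.0965) and -0.24 ± 0.11 (adjusted p = 0.237).

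Between the early and the middle window, 1 of 46 genes was called higher and 3 lower, where 7.74% of all genes were called higher and 14.4% lower. The median change was -0.05 for the members, 30 of which lay below 0, and 0.00 for all genes. Centring each array on the actin and Gapdh controls turned the members' median to 0.04 and that of all genes to 0.08. Rpl13a, a 60S protein that also silences inflammatory messages when released from the ribosome, had middle values of -0.21, -0.16, -0.18 and -0.21 from 2.5 to 4.0 h, against 0.03, 0.01, 0.03 and 0.04 from 0.5 to 2.0 h. The groups did not overlap, and Rpl13a fell by 0.22 ± 0.05 (0.86-fold, adjusted p = 0.01). Its probe sets had differences between -0.38 and -0.12. Tested singly in limma, 1433928_a_at alone was called (adjusted p = 0.00415), and the others had adjusted p between 0.0518 and 0.229. Late values of Rpl13a were -0.05, 0.05, -0.07 and 0.14, so the low values were those of the middle window.

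Rps28, a small protein of the 40S subunit, had middle values of -0.19, -0.06, -0.17 and -0.17, against early values of -0.05, 0.02, 0.07 and 0.04. It fell by 0.17 ± 0.05 (0.889-fold, adjusted p = 0.0304), with no overlap. Rps3, which lies where messenger RNA enters the small subunit, had middle values of -0.13, -0.12, -0.19 and -0.06, against early values of 0.05, 0.06, 0.00 and 0.06. It fell by 0.17 ± 0.05 (0.891-fold, adjusted p = 0.0385), again without overlap. With arrays centred on actin and Gapdh none of these 3 genes was called lower, and the adjusted p-values were 0.0852 for Rpl13a, 0.238 for Rps28 and 0.338 for Rps3. The call for Rpl13a held under 19 of 20 alternatives (adjusted p between 0.00612 and 0.0852), that for Rps28 under 12 of 20 (between 0.00466 and 0.238) and that for Rps3 under 7 of 20 (between 0.0347 and 0.353). Rps3 was also lost after quantile normalization (adjusted p = 0.0788), with arrays centred on their medians (adjusted p = 0.061) and without plain _at probe sets (adjusted p = 0.353), and both Rps3 (adjusted p = 0.0651) and Rps28 (adjusted p = 0.0839) with the median over probe sets.

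Rpl41, a very short and basic 60S peptide, went the other way. Its middle values were 0.14, 0.08, 0.01 and 0.06, against early values of -0.14, -0.05, -0.12 and -0.16. It rose by 0.19 ± 0.06 (1.14-fold, adjusted p = 0.0481), without overlap, and the call held under 7 of 20 alternatives, with adjusted p between 0.00567 and 0.287. Rpl39l, the form of Rpl39 known from mouse testis, had the next largest difference, 0.17 ± 0.07 (adjusted p = 0.0751), and Rpl12 the third, 0.13 ± 0.13 (adjusted p = 0.494). Rpl37 and Rps29, both zinc-binding proteins, had differences of -0.23 ± 0.10 (adjusted p = 0.108) and -0.17 ± 0.06 (adjusted p = 0.0553).

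Late against early, 3 of 46 genes were called higher and 0 lower, where 11.7% of all genes were called higher and 9.29% lower. At an unadjusted p under 0.05, 10 members were higher and 0 lower, where 17.7% of all genes were higher and 13.9% lower. The median change was 0.07 for the members and 0.02 for all genes, and 41 of the 46 members lay above 0, as did 56.0% of all genes. The members' median change lay above 0 under each other scaling tried. It was 0.07 after quantile normalization, 0.07 with arrays centred on their medians and 0.03 with arrays centred on actin and Gapdh. The median of all genes was 0.005, 0.011 and -0.022 under these scalings, so the zero point moved with the scaling. Under the centring on actin and Gapdh 29 of 46 members were above 0.

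Rpl14, a 60S protein with no counterpart in bacteria, carried the largest late rise. Its late values were 0.29, 0.28, 0.23 and 0.58 from 4.5 to 6.0 h, against -0.35, -0.20, 0.00 and -0.14 from 0.5 to 2.0 h. Every late array lay above every early one, and Rpl14 rose by 0.52 ± 0.11 (1.43-fold, adjusted p = 0.00292). The call held under all 19 alternatives that gave a p, with adjusted p between 0.000728 and 0.0111. Leaving out the 0 h array or a middle array could not move this difference. The setting without plain _at probe sets gave no p, since it drops the 1 probe set of Rpl14. The middle values were -0.22, -0.07, -0.15 and 0.26, so that 4.0 h already lay in the range of the late arrays.

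Rps20, a 40S protein of the head, had late values of -0.04, 0.15, 0.19 and 0.33, against early values of -0.15, -0.10, -0.01 and -0.03. It rose by 0.23 ± 0.07 (1.17-fold, adjusted p = 0.0307), with the 4.5 h array inside the early range and the other 3 above it. Rpl41 had late values of 0.27, 0.03, -0.03 and 0.06, all above its early values, and was 0.20 ± 0.06 higher (1.15-fold, adjusted p = 0.0383). The call for Rps20 held under 13 of 20 alternatives (adjusted p between 0.0023 and 0.338) and that for Rpl41 under 10 of 20 (adjusted p between 0.00546 and 0.214). Rpl8, a core protein near the peptidyl transferase centre, had a difference of 0.19 ± 0.07 (adjusted p = 0.073). Rps4x, encoded on the X chromosome, and Rps28 had the lowest differences, -0.06 ± 0.07 (adjusted p = 0.67) and -0.04 ± 0.05 (adjusted p = 0.72), and Rpl13a had -0.01 ± 0.05 (adjusted p = 0.93).

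**Figure D3:**
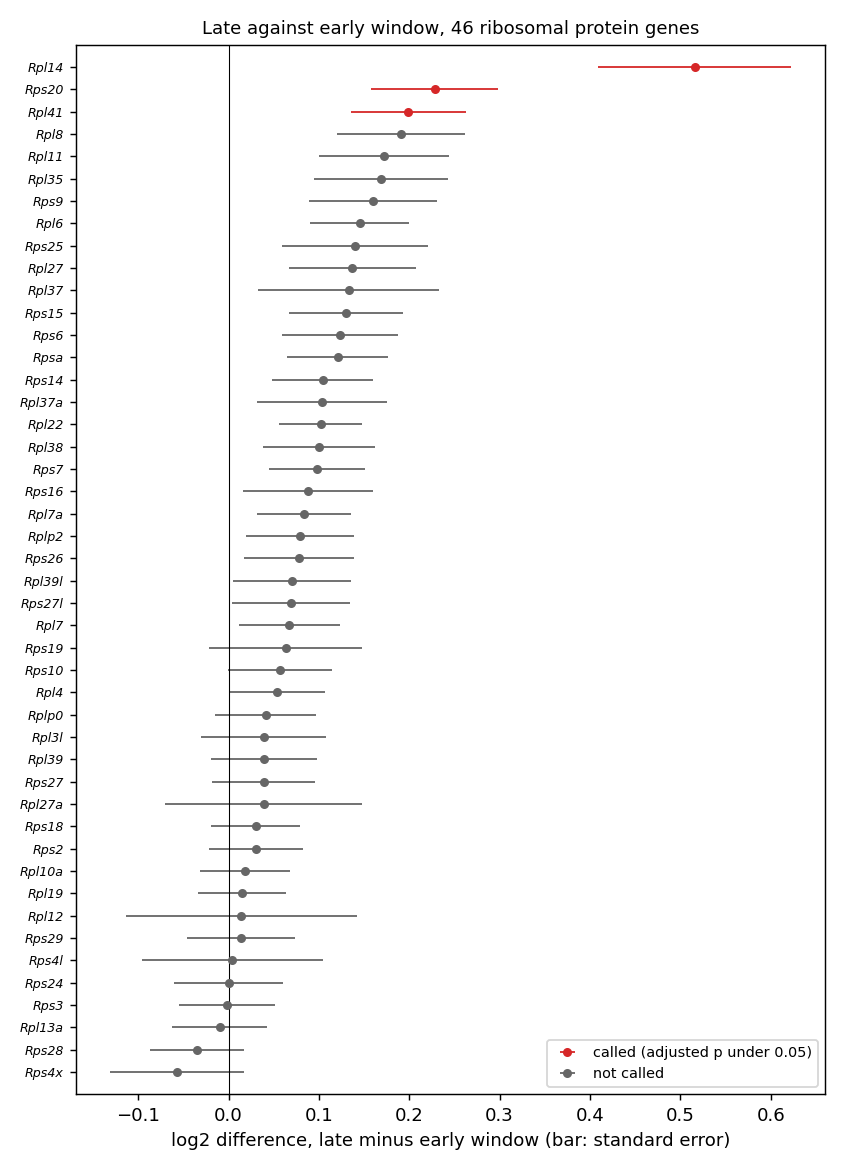
Late minus early difference in log2 ratio (horizontal axis) for each of the 46 ribosomal protein genes, sorted by size, with bars of 1 standard error from the limma fit and called genes in red. Rpl14 stands at 0.52, the next gene, Rps20, at 0.23, and 5 genes lie below 0.

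Late against 0 h, 4 of 46 genes were called higher and 1 lower, where 8.8% of all genes were called higher and 9.9% lower. Rpl27a (0.76 ± 0.17, 1.69-fold, adjusted p = 0.0082), Rpl12 (0.74 ± 0.20, 1.67-fold, adjusted p = 0.0206) and Rps16 (0.68 ± 0.11, 1.6-fold, adjusted p = 0.00147) rose. Their late values lay between -0.10 and 0.10 for Rpl27a, between -0.15 and 0.30 for Rpl12 and between -0.01 and 0.27 for Rps16, against the 0 h values of -0.77, -0.70 and -0.57. For each of the 3 genes the 0 h array was the lowest of all 13. Rps15, which takes part in the export of the small subunit from the nucleus, had late values of 0.06, 0.22, 0.07 and 0.23, against -0.17 at 0 h. It rose by 0.31 ± 0.10 (1.24-fold, adjusted p = 0.0442), a call that held under 8 of 19 alternatives, with adjusted p between 0.0209 and 0.105. Rps27l had late values of 0.05, 0.11, -0.06 and 0.16, all below the 0.39 at 0 h, and fell by 0.33 ± 0.10 (0.796-fold, adjusted p = 0.0365, and between 0.0237 and 0.264 over 19 alternatives). Rps28 and Rpl3l had the next lowest differences, -0.22 ± 0.08 (adjusted p = 0.0785) and -0.20 ± 0.11 (adjusted p = 0.226).

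Probe sets of the same gene did not always move together. Of the 2 probe sets of Rpl27a, 1437729_at read -1.42 at 0 h and -0.71 at 0.5 h and then lay between -0.37 and 0.21, while 1419799_at read -0.11 at 0 h and -0.24 at 0.5 h. Late minus 0 h was 1.43 for the first and 0.09 for the second, so that the rise of Rpl27a came from 1 probe set. For Rpl41 the difference ran between -0.08 and 0.87 over 4 probe sets. The rise of Rpl41 in the middle window was seen in 1433530_at and 1454639_x_at, with values of 0.30 and 0.38 at 2.5 h, and not in 1422623_x_at and 1455578_x_at, with values of -0.06 and -0.06. For Rps20 it ran between -0.21 and 0.69. Its probe set 1450417_a_at read 0.40, 0.69 and 0.98 from 5.0 to 6.0 h and 1421935_at read 0.20, 0.23 and 0.26, while its 2 sets ending in _x_at lay between -0.09 and 0.06. Rps18 (between -0.52 and 0.16) and Rps9 (between 0.03 and 0.63) also differed among their probe sets. For Rps27l (between -0.38 and -0.22), Rps28 (between -0.28 and -0.18) and Rps15 (between 0.27 and 0.35) the probe sets lay close together.

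The ending of a probe set's name tells how the array's makers judged its uniqueness. A plain _at was designed against 1 sequence, _a_at against transcripts of the same gene, and _s_at and _x_at may match related sequences. At 0 h, 10 of the 31 member probe sets with the plain ending lay below -0.25, and none of the 26 with _a_at, the 40 with _x_at or the 3 with _s_at did. Over all probe sets tested the share below -0.25 at 0 h was 18.8% for the plain ending, 15.3% for _a_at, 24.5% for _x_at and 19.6% for _s_at. In late against 0 h, 9 of the plain member probe sets, 1 of _a_at, 0 of _x_at and 0 of _s_at were called, where 14.7% of all 45037 probe sets were. By ending, 13.6% of all plain probe sets were called, 19.9% of _a_at, 15.7% of _x_at and 20.9% of _s_at. Rpl12, Rpl14 and Rps16 were each read by 1 probe set with the plain ending. With the plain probe sets of the members left out, 32 genes remained, of which 0 were called higher in late against 0 h, 0 higher in early against 0 h and 1 higher in late against early. Of all named genes 1596, 263 and 2135 were called higher in that fit. With every probe set kept these were 1601, 265 and 2137, or 8.8%, 1.46% and 11.7%. With such shares and 32 genes, the low counts cannot be read as particular to the members. Messages of ribosomal proteins have many near-identical pseudogene copies, and which copies a probe set reads was not tested.

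**Figure D4:**
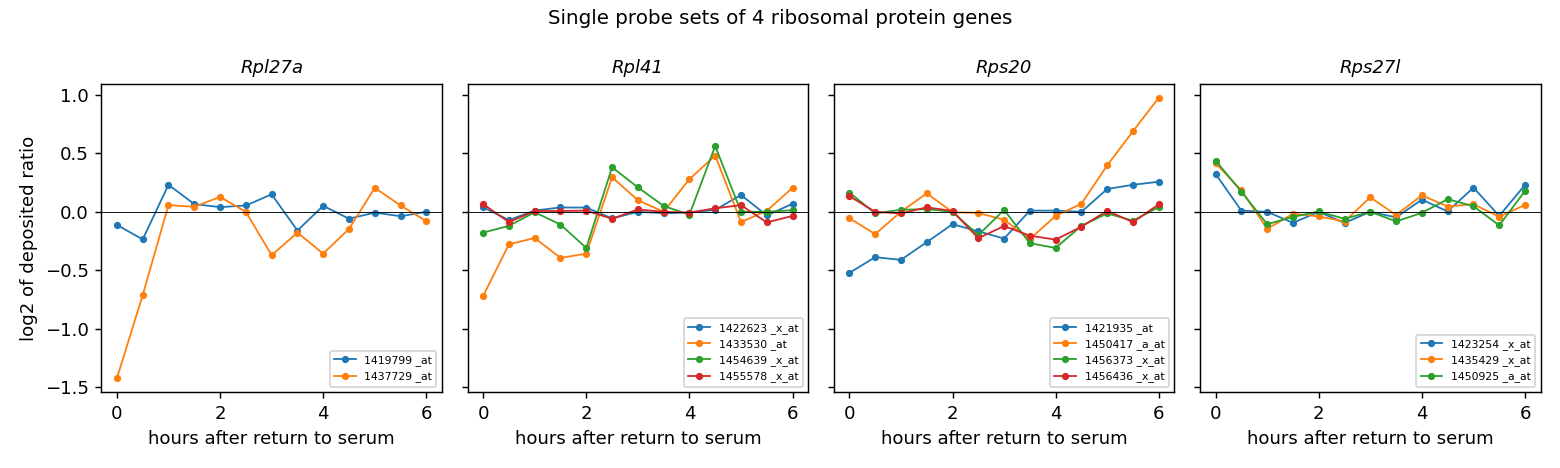
Log2 of the deposited ratio (vertical axis) over hours after the return of serum (horizontal axis) for each probe set of Rpl27a, Rpl41, Rps20 and Rps27l, 1 line per probe set. One of the Rpl27a lines starts at -1.42 and the other at -0.11, and the 3 Rps27l lines start together between 0.32 and 0.44.

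A smooth course over the 13 arrays, a spline of the hour with 4 degrees of freedom, was called for 12 of 46 ribosomal protein genes (26.1%), where 38.0% of all genes were called. The smallest p-values belonged to Rpl27a (adjusted p = 0.000124), Rpl14 (adjusted p = 0.00114), Rpl12 (adjusted p = 0.0014), Rps20 (adjusted p = 0.00141) and Rpl8 (adjusted p = 0.00175). Rpl27a and Rpl12 had their lowest values at 0 h and 0.5 h. Rps20 and Rpl8 were low in the middle window and highest at 6.0 h, Rpl8 with -0.14, -0.26, -0.15 and -0.05 from 2.5 to 4.0 h and 0.33 at 6.0 h. Left without the 0 h array, 6 of the 46 genes were called, and without the 6.0 h array 7 were. The share of all genes called in those fits is not given here, so these lower counts cannot be read as particular to the members.

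No member passed the test of an oscillation with a period of 2 h, the known period of the mouse segmentation clock. In a limma fit of a cosine and a sine beside a smooth trend, 0 of 46 genes were called (0.0% of all genes), and at an unadjusted p under 0.05 there was 1 member, Rps4x, where 3.96% of all genes passed that mark. Rps4x had a fitted amplitude of 0.12, and the next smallest p-values were those of Rpl41, Rpl27a, Rpl4, which lines the exit tunnel, and Rps3, with amplitudes of 0.09, 0.10, 0.06 and 0.06 (adjusted p = 0.998 for each of the 5). Rps4x read 0.15 at 3.0 h and 0.15 at 3.5 h, with -0.20 at 2.5 h and -0.03 at 4.0 h. With a period of 3 h the count was also 0.

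Members with particular roles beyond these are given by their values. The stalk that recruits elongation factors is built by Rplp0, Rplp1 and Rplp2, of which Rplp1 had no probe set of its own. Rplp0 had means of 0.03 ± 0.02 in the early, -0.12 ± 0.07 in the middle and 0.07 ± 0.09 in the late window (SD, n = 4 each), with a called smooth course (adjusted p = 0.0495), and Rplp2 had 0.01 ± 0.06, -0.14 ± 0.08 and 0.09 ± 0.08, with none (adjusted p = 0.181). Rpl11, which with Rpl5 and 5S ribosomal RNA can bind Mdm2 and so release p53, had a late minus early difference of 0.17 ± 0.07 (adjusted p = 0.115). Rps6, the substrate of the S6 kinases that mTOR activates, had 0.12 ± 0.06 (adjusted p = 0.205), and Rpsa, also known as a laminin receptor, had 0.12 ± 0.06 (adjusted p = 0.151). Rps19, often mutated in human Diamond-Blackfan anaemia, had 0.06 ± 0.09 (adjusted p = 0.687). Among the 4 paralogues with a symbol ending in l, Rps27l alone was called in any window comparison. Rps4l, a paralogue of Rps4x, had single values between -0.30 at 2.5 h and 0.26 at 6.0 h, with no call.

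Some of the genes that carry and assemble ribosomal proteins had larger changes. Of 17 measured chaperones, importins and assembly factors of ribosomal proteins, 10 rose late against early and 0 were called lower, where 11.7% of all genes rose and 9.29% fell. Their median change was 0.45, beside 0.07 for the 46 ribosomal protein genes and 0.02 for all genes. Grwd1, known from yeast and human cells as the chaperone of Rpl3, rose by 1.07 ± 0.15 (adjusted p = 0.000181), and Rrs1, which in yeast helps to bring Rpl5 and Rpl11 into the large subunit, by 0.93 ± 0.21 (adjusted p = 0.00462). Tsr2, the chaperone of Rps26, rose by 0.79 ± 0.12 (adjusted p = 0.000299), and Ltv1, an assembly factor of the small subunit that in yeast binds beside Rps3 and Rps20, by 0.76 ± 0.10 (adjusted p = 0.000112). Grwd1 had late values between 0.24 and 0.38, against early values between -1.25 and -0.34. Genes named after their values were seen show that not all carriers rose. The importin Ipo5 rose late against early by 0.28 ± 0.06 (adjusted p = 0.00222). Ipo7 (0.06 ± 0.06, adjusted p = 0.541), Ipo9 (-0.07 ± 0.05, adjusted p = 0.413) and Tnpo1 (-0.03 ± 0.06, adjusted p = 0.779) were not called. Neither were Pdcd2, Pdcd2l, Aamp and Nufip1. Against 0 h, 9 of the 17 rose late, Rrs1 most, by 1.53 ± 0.33 (adjusted p = 0.00545), and 1, Aamp, fell by 0.34 ± 0.10 (adjusted p = 0.0304), where 8.8% of all genes rose and 9.9% fell. In middle against early 8 rose and 1, the importin Ipo9, fell by 0.18 ± 0.05 (adjusted p = 0.0205), where 7.74% of all genes rose and 14.4% fell. In early against 0 h no gene of this or of the next 4 groups was called.

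**Figure D5:**
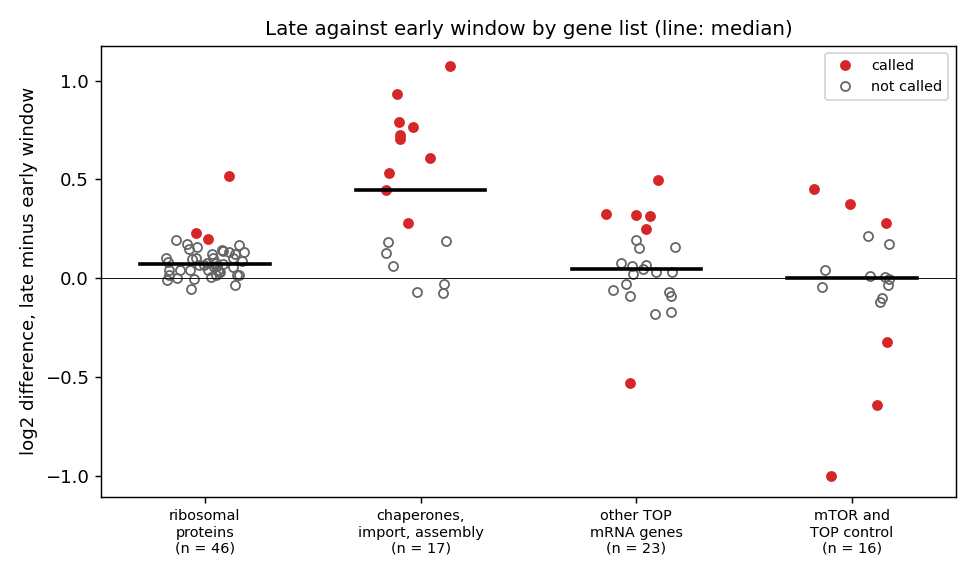
Late minus early difference in log2 ratio (vertical axis) for each gene of 4 groups, the 46 ribosomal protein genes, 17 chaperones, import and assembly factors, 23 other genes with TOP messages, and 16 genes of mTOR and TOP control, with called genes in red and a line at each median. The medians are 0.07, 0.45, 0.05 and 0.00.

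Other genes whose messages carry the TOP motif gave a mixed result. Of 23 measured, 5 rose and 1 fell late against early, with a median of 0.05, where 11.7% of all genes rose and 9.29% fell. Snhg6 and Gas5, non-coding hosts of small nucleolar RNAs, rose by 0.50 ± 0.08 (adjusted p = 0.000572) and 0.32 ± 0.09 (adjusted p = 0.0147). The nucleolar chaperone Npm1 rose by 0.33 ± 0.07 (adjusted p = 0.00255) and Eef1d, an exchange factor of elongation named after its values were seen, by 0.32 ± 0.06 (adjusted p = 0.00242). The initiation factor Eif4b fell by 0.53 ± 0.08 (adjusted p = 0.000287). The elongation factors Eef1a1 (0.05 ± 0.05, adjusted p = 0.59) and Eef2 (-0.06 ± 0.08, adjusted p = 0.666), named after their values were seen, were not called. In middle against early 2 rose, Gas5 and Snhg6, and 4 fell, Eif4b most, by 0.55 ± 0.08 (adjusted p = 0.000519), beside 7.74% and 14.4% of all genes. In late against 0 h 2 rose, Eef1d and Snhg1, and 1 fell, Eif4b, by 0.71 ± 0.13 (adjusted p = 0.00186), beside 8.8% and 9.9% of all genes.

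Of 16 measured genes that set mTOR activity or TOP translation, 3 rose and 3 fell late against early, where 11.7% of all genes rose and 9.29% fell. The translation repressor Pdcd4 fell by 1.00 ± 0.15 (adjusted p = 0.000349), Ddit4, a stress-induced inhibitor of mTOR, by 0.64 ± 0.15 (adjusted p = 0.00754), and Tsc2, which holds mTOR off through Rheb, by 0.32 ± 0.07 (adjusted p = 0.00401). The genes that rose were Eif4ebp1, a repressor of cap-dependent initiation, by 0.45 ± 0.08 (adjusted p = 0.00121), Deptor, an inhibitor bound to mTOR, by 0.38 ± 0.06 (adjusted p = 0.000317), and Larp1b by 0.28 ± 0.06 (adjusted p = 0.00328). Tsc2 and Larp1b were named after their values were seen. Larp1 and Mtor, also named so, had differences of 0.21 ± 0.08 (adjusted p = 0.0779) and -0.04 ± 0.06 (adjusted p = 0.687). In middle against early 1 rose, Eif4ebp1, and 4 fell, Pdcd4 most, by 1.13 ± 0.15 (adjusted p = 0.000381), beside 7.74% and 14.4% of all genes. In late against 0 h 3 rose, Larp1b, Rheb and Deptor, and 3 fell, Pdcd4 most, by 0.85 ± 0.24 (adjusted p = 0.0267), beside 8.8% and 9.9% of all genes.

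Of 6 measured genes of the p53 response to free ribosomal proteins, 3 fell late against early and 0 were called higher, where 9.29% of all genes fell and 11.7% rose. These were Nop53, by 0.31 ± 0.05 (adjusted p = 0.000553), the p53 ligase Mdm2, by 0.25 ± 0.06 (adjusted p = 0.00795), and the ligase Huwe1, by 0.19 ± 0.06 (adjusted p = 0.0276). In middle against early 3 fell, Pml most, by 0.36 ± 0.09 (adjusted p = 0.013), where 14.4% of all genes fell. In late against 0 h 2 fell, where 9.9% of all genes did, Nop53 by 0.50 ± 0.08 (adjusted p = 0.00118) and Mdm4 by 0.28 ± 0.09 (adjusted p = 0.0396). The p53 target Cdkn1a, named after its values were seen, had a late minus 0 h difference of -0.33 ± 0.12 (adjusted p = 0.0601). That of Mdm2 was -0.036 ± 0.095 (adjusted p = 0.846). A part of p53 in the fall of Rps27l was not tested. Of 4 measured ribosomal protein genes whose symbols fall outside the selection, the paralogue Rpl7l1 rose by 0.46 ± 0.10 late against early (adjusted p = 0.00298) and by 0.73 ± 0.15 late against 0 h (adjusted p = 0.00481). Rpl22l1, the paralogue of Rpl22, fell by 0.28 ± 0.08 in middle against early (adjusted p = 0.0206), and Fau and Rps3a1 were not called in any window comparison.

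The genes outside the group whose 13 values were most like the mean of the 46 members were Psmd6 (Pearson r = 0.958), Psma7 (r = 0.956) and Psma6 (r = 0.944), subunits of the proteasome, with Ift43 (r = 0.949), a protein of transport in cilia, and Sf3b6 (r = 0.941), a part of the spliceosome. These r values are over 13 arrays and describe the arrays the genes share. Psma7 had values of -0.30 at 0.5 h, -0.20 at 2.5 h and 0.33 at 6.0 h, and the members' mean was -0.09, -0.08 and 0.15 at those hours. The widths are not alike, since the second is a mean over 46 genes. Single members had ranges between 0.18 (Rps18) and 1.12 (Rpl12).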

How the data were processed

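Per the labels' protocols, biotin-labelled RNA was read on Affymetrix arrays, 1 per flask. The deposited values are linear ratios to a reference per probe set. RMA is named in the submitters' processing notes. No source used here states how the ratios were formed. No array dates were given, so no batch could be tested.

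Of 45101 probe sets, 64 array controls were left out. Of the remaining 45037, 34945 had 1 gene symbol, 932 several and 9160 none. Genes were the mean log2 ratio over probe sets naming only them. Limma 3.58.1 in R 4.3.3 fitted window means over the 13 arrays (lmFit, contrasts, eBayes, two-sided), a spline of time and a cosine and sine of 2 h period beside a spline with 3 degrees of freedom, with Benjamini-Hochberg adjustment over all 18193 genes. Values after ± are standard errors of the fit unless marked SD. The fits were tested on simulated data. Tables were made with pandas 2.3.3 and numpy 2.4.6 under Python 3.11.15, and figures with matplotlib 3.10.9. The arrays' number, not a read depth, limits precision.

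Named were members past the threshold, the 3 largest rises and falls per comparison, the 5 smallest p-values of the smooth and oscillation tests, members with known roles, and the 5 genes whose probe sets differed most. Of other lists, the largest called changes were named, up to 4 per comparison, and further genes only where marked as named after their values were seen. The members, lists, windows and rules were chosen with earlier results of these data known. Alternatives were other scalings, probe set choices, window limits, leaving out each array, a minimum change, spline shapes and another period. Leaving out an array outside a comparison cannot move its difference. The number of settings under which a call held is therefore not a number of independent checks. Leaving out plain _at probe sets and centring on actin and Gapdh controls were chosen after seeing the data.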

Additional observations from a re-analysis of the deposited data

Results flagged for a closer look

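Of 87 windows examined, those of 29 genes or medians in 3 windows each, 8 held an array far from the other 3 by Dixon's test. For independent replicates chance gives about 1 in 20. The arrays of a window were successive times and the genes shared them, so the count cannot be read as an excess over that rate. In the early window the 0.5 h array was far below the others for 4 genes. Rpl27a read -0.48 there, against 0.05 to 0.14 on the other 3 arrays. Rpl11 read -0.20, against -0.01 to 0.02, Rpl8 read -0.13, against 0.01 to 0.02, and Rpl37 read -0.092, against 0.10 to 0.13. Rps3 was lower at 1.5 h, at -0.002, than on the other early arrays, at 0.05 to 0.06. In the middle window Rps15 read 0.00 at 3.5 h, above the other 3 arrays at -0.07. In the late window Rpl14 read 0.58 at 6.0 h, above the others at 0.23 to 0.29, and Rpsa read 0.023 at 5.5 h, below the others at 0.08 to 0.09. Rpl14 was called higher late against early without the 6.0 h array as well.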

How the results depend on the processing

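Of 27 differences of named genes, 1 changed sign, that of Rpl13a late against early, at 0.013 without the 4.5 h array and 0.018 without the 5.5 h array, beside -0.01 with all arrays and a range down to -0.05 when single arrays were left out. Early against 0 h, 2 members were higher, and 0 were after quantile normalization, 0 without plain _at probe sets and 1 with other window limits. The 1 lower member, Rps27l, was lost (0 called) under quantile normalization, arrays centred on their medians, a variance trend, without _x_at and _s_at probe sets, the median over probe sets, centring on actin and Gapdh, single probe sets and other window limits. Middle against early, the count of higher members, 1, was 0 under quantile normalization, the median over probe sets, without plain _at probe sets, single probe sets and a minimum change of 0.2, and 2 under centring on actin and Gapdh. The count of lower members, 3, was 0 under that centring and with single probe sets, and 1 with the minimum change of 0.2. Late against early, the count of higher members, 3, was 1 with the median over probe sets and 1 without plain _at probe sets. Late against 0 h, the count of higher members, 4, was 1 under quantile normalization, 7 without _x_at and _s_at probe sets and 0 without plain _at probe sets, and that of lower members, 1, was 0 under quantile normalization, 3 without _x_at and _s_at probe sets, 2 under centring on actin and Gapdh and 0 with single probe sets. The count of smooth courses, 12, was 5 under quantile normalization and 3 with a straight line.

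Leaving out each array in turn gave 1 to 3 higher and 0 to 1 lower members early against 0 h. The 1 was reached without 1.0, 1.5, 2.0, 3.0, 3.5, 5.0 or 5.5 h, and Rps27l was lost without any of these or 4.5 h. Middle against early gave 0 to 1 higher, with 0 without 0.5, 1.0, 1.5, 2.0, 2.5, 3.5, 4.0, 5.0 or 6.0 h, and 1 to 5 lower, with 1 without 1.0, 1.5, 2.0, 2.5 or 3.5 h and 5 without 4.5 h. Late against early gave 1 to 3 higher, with 1 without 0.5, 5.0 or 6.0 h, and 0 lower throughout. Late against 0 h gave 3 to 5 higher and 0 to 1 lower, with 0 without 4.5 or 5.5 h. Smooth courses ran from 6 without 0 h to 12, and the oscillation stayed at 0. The window counts over all 18193 genes moved in the same fits. Early against 0 h they were 145 to 676 higher and 153 to 755 lower. Middle against early they were 877 to 1525 and 1963 to 2646. Late against early they were 1709 to 2173 and 1332 to 1695, and late against 0 h 1316 to 1827 and 1451 to 2009. The changes in member counts therefore cannot be read as particular to the members.

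The members' median relative to 0 h moved by more than the spread of its window as follows. At 2.5 h, beside -0.12, it was -0.069 under quantile normalization, -0.171 without plain _at probe sets and -0.047 under centring on actin and Gapdh. Without plain _at probe sets it was -0.09 at 3.0 h, -0.148 at 3.5 h and -0.115 at 4.0 h. Centring on actin and Gapdh gave 0.046 at 3.5 h, 0.016 at 4.0 h, -0.082 at 5.5 h and 0.056 at 6.0 h, and quantile normalization -0.034 at 4.0 h. Without the 0.5 h array the median change early against 0 h was 0.00 (0.003), beside -0.03.

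Scaling also moved the split over all genes. Early against 0 h, 38 were higher and 7 lower after quantile normalization, beside 265 and 329. Late against 0 h, 1020 were higher and 886 lower after it, beside 1601 and 1801. With the median over probe sets 2032 were higher late against early, beside 2137. The counts over all genes for other window limits, the minimum change, single probe sets taken by gene and the alternative smooth courses are not given here. With centring on actin and Gapdh, 3044 were higher and 1400 lower middle against early, beside 1409 and 2624, and 1580 higher and 2000 lower late against early, beside 2137 and 1690. The cause of these differences was not tested. No paired analysis was possible because the labels give no replicate numbers. Limits are 1 array per time, a single 0 h array, ratios without signal levels, and probe sets that may read pseudogene copies.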
